A study of Mus musculus with 2 samples.

Results

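The contractile, myofibroblast-like mesenchymal cells of congested mouse liver are described here: 531 of the 20000 barcodes of the series, where a barcode stands for the contents of 1 captured cell. They were chosen by measured values, so the genes of the choice describe the cells and support nothing. A barcode was kept with at least 300 genes and at most 25% mitochondrial counts. It counted as mesenchymal when Dcn, Colec11, Ecm1, Reln and Col3a1 together reached 30 of every 10000 counts, and as contractile when Acta2, Tagln and Shisa2 together reached 10 of every 10000, a sum called the contractile score below. Barcodes with 15 or more per 10000 of the Kupffer cell genes Clec4f, Vsig4, Cd5l and C6, with 30 or more of the endothelial genes Ptprb, Kdr, Stab2 and Gpr182, or with 2 or more counts of the mesothelial genes Msln, Upk3b and Lrrn4 were left out. The 666 mesenchymal barcodes with a score below 10, called the low-score stellate barcodes, served for comparison.

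Hepatic stellate cells lie between the sinusoidal endothelium and the hepatocytes. In the resting state they store vitamin A as retinyl esters and make Hgf, a growth factor for hepatocytes. When the liver is injured or stretched they can become myofibroblasts, which lose the retinoid stores, build actin and myosin stress fibres, and lay down fibrillar collagen. Portal fibroblasts and the smooth muscle cells of vessels also make Acta2, the smooth muscle actin by which myofibroblasts are usually recognised. Transcription of contractile genes is driven by SRF, which binds CArG boxes together with the cofactors myocardin and MRTF-A, of which MRTF-A senses actin. It is also driven by the stretch-sensitive YAP and TEAD factors, whose targets include Ccn2 (connective tissue growth factor, also called Ctgf).

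The series holds 1 library of each of 2 genotype labels, both from male littermates with partial ligation of the inferior vena cava, an operation that dams the venous outflow and congests the liver. The control genotype carries floxed alleles of Ctgf (Ctgffl/fl) without a recombinase. The knockout genotype carries the same floxed alleles and Cdh5-CreERT2, a tamoxifen-inducible recombinase under an endothelial promoter, so a deletion is directed to endothelial cells and not to the cells described here. The labels state neither ages nor a tamoxifen schedule. The titles of both libraries name the opposite genotype while the library names go with the genotype label, so values are given for the library labelled control and the library labelled knockout, and every direction between them rests on the genotype label. Hepatocytes had been removed by low-speed centrifugation before capture. No test could be made on 1 library for each label: intervals cover counting error only, and a difference between the libraries cannot be told apart from a difference between 2 mice or 2 preparations.

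Each library had 10000 barcodes, of which 7917 (control) and 8799 (knockout) were kept, and 2 barcode sequences occurred in both. In endothelial barcodes, the cells that the recombinase is meant to act in, Ccn2 was counted in 74.8% (control) and 2.54% (knockout). B cell barcodes, taken as background, gave 8.48% and 0.781%. In the contractile barcodes Ccn2 was counted in 93.9% (control) and 96.4% (knockout). The contractile barcodes had a median of 11677.5 counts in the library labelled control (from 3707 to 61107) and 10060 in the library labelled knockout (from 3288 to 78786). The low-score stellate barcodes were shallower, with medians of 7627 and 8346 counts.

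Promoter sequences of 4 genes on which the results below turn are shown first, because they carry the motifs of the factors named above. Each is the 250 bases before the transcription start, 5′ to 3′ on the gene's own strand, from RefSeq on build GRCm38.p6. The deposited counts were made on GRCm39 and hold no coordinates. Capitals mark 2 kinds of match: a CArG-like box, CCNNNNNNGG with at least 5 of its 6 middle letters A or T, and CATTCC on either strand, the core of the MCAT element of TEAD factors, which reads GGAATG where it lies on the other strand.
Acta2: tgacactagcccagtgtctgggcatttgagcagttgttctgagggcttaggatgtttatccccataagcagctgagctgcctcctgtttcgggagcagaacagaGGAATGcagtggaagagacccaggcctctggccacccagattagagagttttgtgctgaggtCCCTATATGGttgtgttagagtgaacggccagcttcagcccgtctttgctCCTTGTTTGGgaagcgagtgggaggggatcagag
Tpm1: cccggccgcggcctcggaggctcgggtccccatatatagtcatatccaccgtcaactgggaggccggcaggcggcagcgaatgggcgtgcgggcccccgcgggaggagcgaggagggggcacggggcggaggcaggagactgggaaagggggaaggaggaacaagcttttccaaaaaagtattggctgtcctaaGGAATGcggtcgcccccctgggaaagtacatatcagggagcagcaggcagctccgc
Ankrd1: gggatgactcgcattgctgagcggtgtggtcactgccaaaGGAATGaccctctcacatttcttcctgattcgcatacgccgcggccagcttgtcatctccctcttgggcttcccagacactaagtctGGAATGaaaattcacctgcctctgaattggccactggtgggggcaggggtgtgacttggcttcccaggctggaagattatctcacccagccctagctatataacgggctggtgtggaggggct
Shisa2: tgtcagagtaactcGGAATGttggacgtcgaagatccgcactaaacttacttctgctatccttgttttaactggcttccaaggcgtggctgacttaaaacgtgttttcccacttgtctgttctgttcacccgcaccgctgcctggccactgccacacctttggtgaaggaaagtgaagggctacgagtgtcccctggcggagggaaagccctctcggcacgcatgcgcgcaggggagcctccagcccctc
The Acta2 sequence (chr19:34255374-34255623, minus strand) held 2 CArG-like boxes, beginning at bases -84 and -34 counted from the start site, and 1 CATTCC match beginning at -146. Tpm1, which encodes a tropomyosin (chr9:67049214-67049463, minus strand), held 1 CATTCC match at -56. Ankrd1, a YAP target (chr19:36119845-36120094, minus strand), held 2 such matches, at -210 and -123. Shisa2 (chr14:59625031-59625280, plus strand) held 1 at -236. The promoters of Igfbp3 and Thbs2, the other named markers, held neither motif in this window, and Tagln and Myh11 had no matched entry. Among all 32851 promoters of the table, 8.59% held a CArG-like box and 12.6% held CATTCC. Of 32 genes of the contractile apparatus 27 were matched, and 7 of them (25.9%) held a CArG-like box and 9 (33.3%) CATTCC. Of 17 YAP and TEAD targets 14 were matched, and 8 (57.1%) held CATTCC. These matches describe letters in a window and show no binding.

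The contractile score was spread continuously, with no gap at the limit. In the library labelled control 46 mesenchymal barcodes had a score of 0, 137 lay above 0 and under 5, 73 from 5 to under 10, 111 from 10 to under 20, 143 from 20 to under 50, and 140 at 50 or more. The same ranges held 92, 200, 118, 89, 32 and 16 barcodes labelled knockout. Close to the limit, 34 (control) and 38 (knockout) barcodes had scores from 8 to under 10, and 30 and 28 had scores from 10 to under 12. The highest score left outside was 9.96 (control) and 9.99 (knockout), and the lowest taken in was 10.04 and 10.02. The class is thus cut from a graded score, and whether it holds separate cell populations was not tested.

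**Figure D1:**
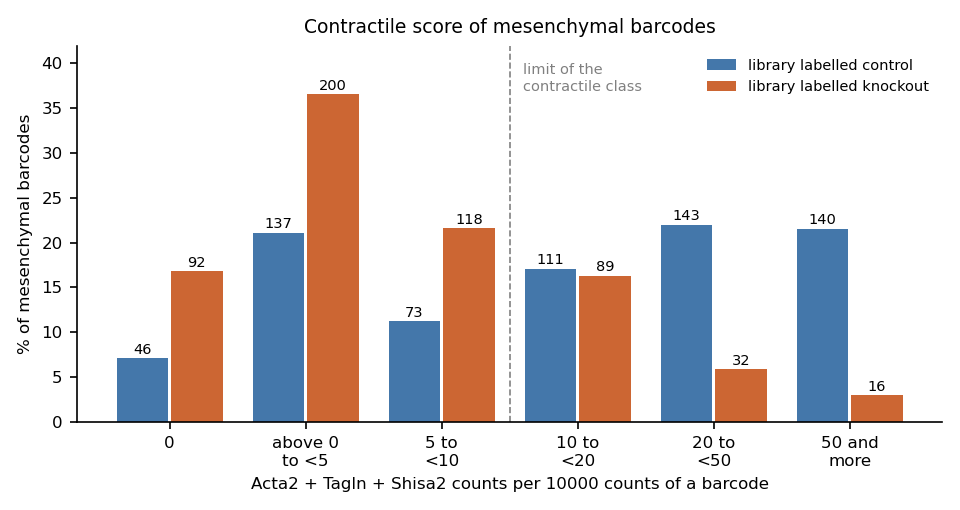
Share of mesenchymal barcodes (vertical axis, %) in each range of the contractile score (horizontal axis, counts of Acta2, Tagln and Shisa2 per 10000), for the library labelled control (650 barcodes) and the library labelled knockout (547). The number over each bar is its count of barcodes, and the dashed line is the limit of the contractile class. The range of 50 or more holds 140 barcodes labelled control and 16 labelled knockout.

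Contractile barcodes made up 394 of 650 mesenchymal barcodes in the library labelled control (60.6%, 95% Clopper-Pearson interval 56.7 to 64.4) and 137 of 547 in the library labelled knockout (25.05%, 21.5 to 28.9). Of all kept barcodes they were 4.98% (4.51 to 5.48) and 1.56% (1.31 to 1.84). Mesenchymal barcodes as a whole were 8.21% and 6.22% of those kept, and the low-score stellate barcodes 3.23% and 4.66%. When every barcode was thinned to 4374 counts before the score was taken, the shares were 61.0% (372 of 610) and 25.3% (118 of 467). Without the limits on Kupffer, endothelial and mesothelial genes, 499 of 1021 (48.9%) and 151 of 1090 (13.9%) of barcodes with the mesenchymal sum reached the score. The intervals did not overlap under any of these ways of counting. The gap cannot be told apart from one between 2 mice or 2 preparations.

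The score was made up differently in the 2 libraries. Acta2 gave 49.6% of the summed score of the contractile barcodes labelled control and 39.4% of those labelled knockout. Tagln, which encodes the actin-binding protein transgelin, gave 44.6% and 58.0%, and Shisa2, an endoplasmic reticulum protein that holds back Wnt and FGF receptors, gave 5.81% and 2.55%. Tagln alone passed the limit of 10 in 287 contractile barcodes labelled control (72.8%) and 119 labelled knockout (86.9%), whereas Acta2 alone passed it in 219 (55.6%) and 25 (18.2%). No Acta2 count at all was found in 47 contractile barcodes labelled control (11.9%) and 89 labelled knockout (65.0%). Membership therefore rested mostly on Tagln where the label was knockout. The median score of the members was 35.0 (control) and 16.4 (knockout), with lower and upper quartiles of 18.5 and 65.1 (control) and of 12.5 and 29.1 (knockout).

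At the level of the single barcode, Acta2 was counted in 88.1% of contractile barcodes labelled control and 35.0% of those labelled knockout, and in 84.6% and 29.5% after thinning to 4374 counts. Among low-score stellate barcodes the unthinned shares were 18.4% and 5.85%. In B cells, whose median depth was 4650 and 4156 counts, they were 5.36% and 1.56%. Shisa2 was counted in 86.5% and 41.6% of the contractile barcodes, and in 68.9% and 24.6% after thinning. It was counted in 0.731% and 0.134% of endothelial barcodes, at median depths of 7070 and 7365 counts. Levels below are counts summed over the barcodes of a class, per 1000000 of that class's counts (CPM). Acta2 reached 2741 CPM (95% Poisson interval 2697 to 2785) in the contractile barcodes labelled control and 1320 CPM (1265 to 1377) in those labelled knockout, against 44.5 and 17.5 CPM in the low-score stellate barcodes. Tagln reached 2468 and 1944 CPM against 192 and 303 CPM, and Shisa2 reached 321 and 85.3 CPM against 155 and 44.0 CPM. These are genes of the rule, and their separation between the classes was set by it. Acta2 and the enteric actin Actg2 are nearly identical, and how the authors divided reads between them is not given in the sources used here, so the split between both genes is uncertain.

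The other named markers did not separate the contractile from the low-score barcodes. Igfbp3, a secreted carrier of insulin-like growth factors, was at 4715 CPM in contractile and 3974 CPM in low-score stellate barcodes of the library labelled control, and at 2732 and 2402 CPM in the library labelled knockout. Thbs2, a matrix thrombospondin, was at 216 and 211 CPM (control) and at 79.2 and 55.6 CPM (knockout). Both ratios stayed under 1.5-fold in each library. Igfbp3 was counted in 98.2% and 94.2% of contractile barcodes and in 8.93% and 2.73% of B cells, so it marked mesenchymal barcodes in general rather than the contractile ones. The name of the class thus rests on the genes of the rule, and in the library labelled knockout mostly on Tagln. Igfbp3 and Thbs2 do not bear it out.

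Markers of other cell types were measured beside this. Lrat, the enzyme that esterifies retinol in stellate cells, was counted in 92.6% (control) and 89.1% (knockout) of contractile barcodes and in 2.68% and 1.56% of B cells. The 12 macrophage markers summed to 1653 CPM in contractile barcodes labelled control and 391 CPM in those labelled knockout, against 26429 and 31181 CPM in Kupffer barcodes. All 12 were detected, and single barcodes ranged from 0 to 224 (control) and from 0 to 26.7 (knockout) per 10000. The 12 endothelial markers summed to 1264 and 714 CPM against 15574 and 24193 CPM in endothelial barcodes, with single barcodes from 0 to 86.3 and from 0 to 75.5 per 10000. The 10 hepatocyte markers summed to 808 and 466 CPM, the 8 lymphocyte markers to 93.6 and 91.4 CPM and the 6 cholangiocyte markers to 4.51 and 28.0 CPM. The 10 mesothelial markers summed to 18.0 and 28.0 CPM, with Bnc1 at 0 in both libraries. Ptprc, the pan-leukocyte gene CD45, was counted in 20.6% and 11.7% of contractile barcodes, in 28.6% and 14.4% of endothelial barcodes, and in 93.3% and 96.5% of B cells. Their part in the results below was not tested, and values without the Ptprc-positive barcodes are given where a result turned.

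Contractile and low-score stellate barcodes were compared within each library, since both then come from the same mouse and preparation. A gene was measured when both classes together held 50 counts or more and 1 of them reached 20 CPM, in each library. It was called higher or lower when it was at least 1.5-fold apart the same way in both libraries. Of 6828 measured genes, 247 (3.62%) were called higher in the contractile barcodes and 303 (4.44%) lower. The median log2 ratio of all measured genes was -0.06 (control) and -0.07 (knockout). Because the score itself split the classes, and genes that vary with it in single cells follow from that split, these numbers are descriptions. Markers of other cell types moved with the classes as well. All 9 measured macrophage markers were lower in the contractile barcodes of both libraries, with medians of -1.19 (control) and -2.22 (knockout), and without barcodes with a Ptprc count the knockout median was 0.01 and 175 genes were called lower in place of 303. Of 10 measured endothelial markers 5 were higher and none lower in the library labelled control, and none higher and 1 lower in the library labelled knockout. Of 7 measured portal fibroblast markers 5 were higher in the library labelled knockout (median 1.83) and 1 in the library labelled control (0.22), and 1 was lower in each. Over all measured genes, 6.36% were 1.5-fold higher and 9.49% lower within the library labelled control. Within the library labelled knockout these shares were 6.12% and 9.07%. Their part in the class differences was not tested.

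For all lists of this class comparison the shares over all genes, 3.62% higher and 4.44% lower, are the background. Within the contractile apparatus, 20 of 29 measured genes were called higher (69.0%) and none lower, with a median log2 ratio of 1.37 (control) and 0.92 (knockout). Myh11, the smooth muscle myosin heavy chain, was at 327 CPM in contractile and 17.2 CPM in low-score barcodes labelled control, and at 385 and 70.5 CPM in those labelled knockout. Lmod1, which nucleates actin filaments in smooth muscle, was at 78.3 against 4.41 CPM and at 84.7 against 4.13 CPM, which is 17.8-fold and 20.5-fold. Tpm1 was at 2492 against 635 CPM and at 1401 against 333 CPM. Actn1, an actin cross-linker of stress fibres, was at 1102 against 361 CPM and at 619 against 234 CPM. The light chains and other tropomyosins moved alike: Myl9 was at 692.5 against 99.8 CPM and at 438 against 121 CPM, and Tpm2 at 352 against 62.5 CPM and at 307 against 71.7 CPM. Actg2 had 782 counts in the contractile barcodes labelled control (141 CPM) and none in the low-score ones, at least 117-fold higher when a floor of 3 counts over the class is used. The library labelled knockout gave it 145 counts (88.4 CPM) against 2, a log2 ratio of 7.51 (5.63 to 10.57). Actg2 was counted in only 24.9% (control) and 8.03% (knockout) of contractile barcodes. The 5 barcodes with most of its counts held 30.4% and 69.7% of them. The other 9 measured genes of the list did not reach 1.5-fold in both libraries.

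Most transcription factors of this programme stayed under the 1.5-fold rule. Of 10 measured SRF and myocardin-related factors only the forkhead factor Foxs1 was called higher, at 29.8 against 13.6 CPM (control) and 34.7 against 16.0 CPM (knockout). The list's median was -0.05 (control) and 0.18 (knockout), near that of all genes. Among 14 measured YAP and TEAD targets 5 were called higher and 1 lower. Ankrd1, a cardiac ankyrin repeat protein, was at 64.2 against 3.21 CPM and at 155 against 3.16 CPM. It was counted in only 23.9% (control) and 13.1% (knockout) of contractile barcodes. The 5 barcodes with most of its counts held 26.1% and 80.8% of them. Ccn2 was at 1523 CPM (1491 to 1556) against 624 CPM (594 to 656) under the control label and at 1627 CPM (1566 to 1690) against 924 CPM (895 to 954) under the knockout label. The knockout log2 ratio of Ccn2 was 0.82 and no longer reached 1.5-fold under 3 alternatives. It was 0.44 with the mean of each barcode's own CPM in place of summed counts, 0.54 after thinning, and 0.22 without barcodes of at least 2 Myh11 counts. Crim1, a transmembrane binder of BMPs, was at 363 against 171 CPM and 337 against 189 CPM. The ecto-nucleotidase Nt5e was lower, at 187 against 361 CPM and 143 against 221 CPM. Ccn1, the closest relative of Ccn2, was at 213 against 129 CPM (control) but at 941 against 1253 CPM (knockout), so it did not separate the classes the same way in both libraries.

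Of 13 measured collagens 6 were called higher and none lower, with medians of 0.52 (control) and 1.17 (knockout). Col1a1, a chain of type I collagen, was at 7193 CPM against 2054 CPM (control) and at 9258 against 813 CPM (knockout), and Col1a2, its partner chain, at 5222 against 2097 CPM and at 7085 against 1278 CPM. Col8a1, a short-chain collagen of remodelling vessels and fibrous tissue, was 15.1-fold and 46.3-fold higher, at 562 against 37.3 CPM and at 439 against 9.47 CPM. Of the matrix glycoproteins, 9 of 20 measured were higher and none lower. Tnc (tenascin C) was at 260 against 99.0 CPM and at 280 against 44.9 CPM, and Thbs1, which can activate latent TGF-beta, at 252 against 92.2 CPM and at 427 against 155 CPM. Eln (elastin) was at 569 against 174 CPM and at 3344 against 28.4 CPM. Basement membrane genes gave 7 of 15 higher, among them Col4a1 at 4571 against 1795 CPM and at 2983 against 1056 CPM. In each of these 3 lists more measured genes stayed outside the rule than passed it, and Eln rested on few barcodes, as given below.

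Of 19 measured genes of collagen processing and cross-linking 7 were called higher and none lower. Lox, the lysyl oxidase that cross-links collagen and elastin, was at 447 against 85.8 CPM (control) and at 405 against 6.07 CPM (knockout). Loxl2, its relative, was at 857 against 398 CPM and 578 against 217 CPM, and Plod2, which hydroxylates collagen lysines, at 285 against 185 CPM and 263 against 70.5 CPM. Of 17 measured genes of matrix remodelling 8 were higher and none lower. Timp1, an inhibitor of metalloproteinases, was at 44.0 against 13.2 CPM and 204 against 21.4 CPM, but the knockout level came almost wholly from 5 barcodes, as described below.

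Of 22 measured genes of quiescence and retinoid handling in stellate cells, none was called higher and 4 lower (18.2%, against 4.44% of all genes), while 18 did not pass in both libraries. The list's median was -0.50 (control) and -0.44 (knockout). Hgf was at 484 CPM in contractile and 965 CPM in low-score barcodes labelled control, and at 783 and 1421 CPM in those labelled knockout. Others called lower included the chemokine Cxcl12, at 2043 against 3684 CPM and 3581 against 6014 CPM, and the angiopoietin-like gene Angptl6, at 276 against 566 CPM and 482 against 771 CPM. Lrat was at 1030 against 1712 CPM and at 1100 against 1502 CPM, which met 1.5-fold in the library labelled control only. All of these transcripts were still counted in the contractile barcodes.

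In the TGF-beta axis 2 of 19 measured genes were called higher (10.5%) and 1 lower (5.26%), against 3.62% and 4.44% of all genes. The list's median was -0.25 (control) and -0.12 (knockout). The ligand Tgfb2 was at 586 against 58.5 CPM and 503 against 31.1 CPM, which is 10.01-fold and 16.2-fold. The ligand Tgfb3 was at 210 against 21.2 CPM and 133 against 18.0 CPM. Tgfbi, a secreted matrix protein named for its induction by TGF-beta, was lower, at 1189 against 2193 CPM and 1061 against 2045 CPM. Pdgfa was the 1 gene called higher of 9 measured in the PDGF and IGF axis (11.1%), at 137 against 56.9 CPM and 109 against 53.0 CPM. The growth factor Vegfd was 9.63-fold and 42.3-fold higher. Of 14 measured vasoactive receptors and genes of cyclic GMP signalling 3 were lower (21.4%) and none higher. They included both subunits of a vascular potassium channel sensitive to ATP: Abcc9 was at 723 against 1893 CPM and 1221 against 2512 CPM, and Kcnj8 at 56.5 against 173 CPM and 60.3 against 126 CPM. Integrins showed no gene higher and 1 lower of 10 measured (10%), Itgb3 at 108 against 200 CPM and 139 against 233 CPM.

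**Figure D2:**
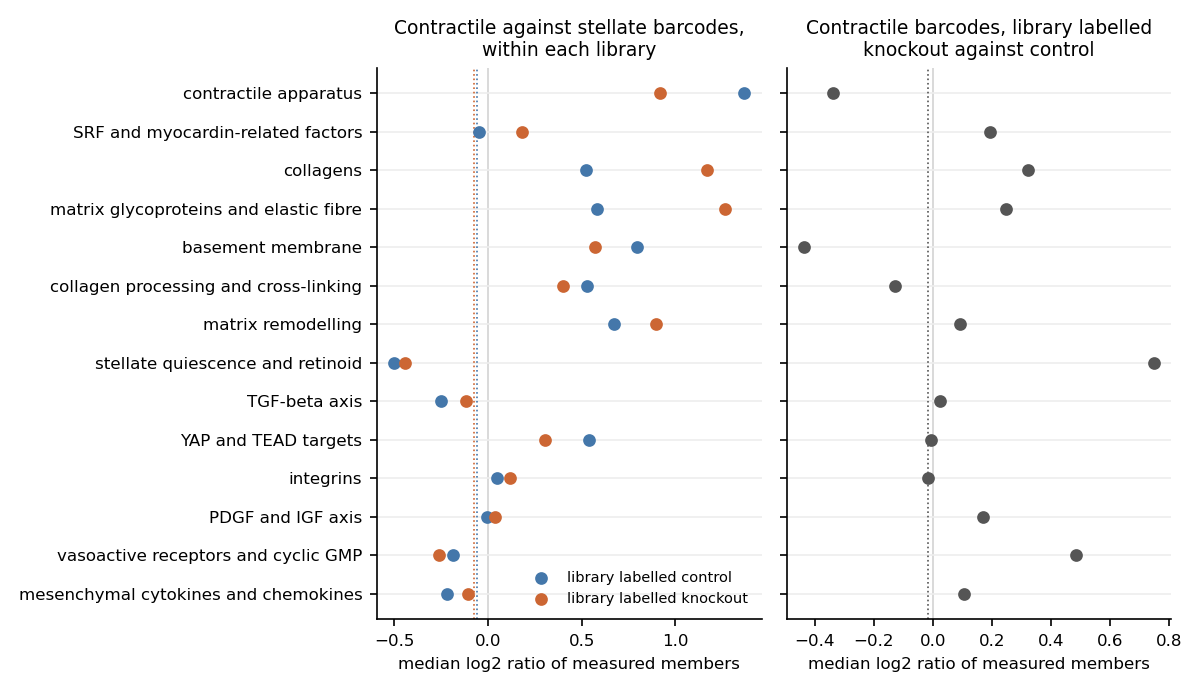
Median log2 ratio (horizontal axis) of the measured genes of each list (vertical axis) for contractile against low-score stellate barcodes in each library and for knockout against control within the contractile barcodes. Points are medians over genes, with no error since genes are not replicates, and dotted lines are the medians of all measured genes. The contractile apparatus stands at 1.37 and 0.92 in the class comparison and at -0.34 between the libraries. The cell cycle list and the lists of cell type markers are not drawn.

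Outside the lists, the genes furthest apart included other secreted factors. Ccn5, a matricellular relative of Ccn2, was at 144 against 10.8 CPM in the library labelled control. In the library labelled knockout it was at 381 CPM against a single count, a log2 ratio of 10.61 (8.13 to 15.92), and 63.5% of its counts came from 5 barcodes. Hhip, which binds and holds back hedgehog ligands, was lower, at 149 against 607 CPM and 266 against 712 CPM. Gja1, which encodes a gap junction protein, was lower as well, at 49.6 against 200 CPM and 66.4 against 166 CPM. Of 11 measured cytokines and chemokines 1 was called higher (9.09%) and 2 lower (18.2%), against 3.62% and 4.44% of all genes. The higher one was Ccl19, at 37.9 against 18.0 CPM and 133 against 52.0 CPM. The lower ones were Cxcl1, at 10.8 against 37.7 CPM and 14.0 against 39.4 CPM, and Ccl2, at 83.7 against 126 CPM and 65.2 against 113 CPM. In the library labelled control, Cxcl1 was counted in 7.36% of contractile and 6.64% of low-score barcodes, and Ccl2 in 26.1% and 23.8%. The 5 barcodes with most of each gene's counts held 55.0% (contractile) and 77.7% (low-score) for Cxcl1 there, and 35.8% and 44.6% for Ccl2. With the score limit at 5, the knockout ratios of Cxcl1 and Ccl2 turned, to 2.19 and 0.53 on the log2 scale.

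Of 15 markers of vessel wall cells (smooth muscle or pericytes) 7 were measured in both libraries. Of these, 5 were called higher (71.4%, against 3.62% of all genes) and none lower, with medians of 1.496 (control) and 1.18 (knockout). Notch3, the Notch receptor of smooth muscle cells and pericytes, was at 199 against 29.3 CPM and at 507 against 32.3 CPM, and its target Heyl at 72.4 against 25.6 CPM and at 166 against 87.2 CPM. Cnn1, a calponin of mature smooth muscle, was counted in 10.7% and 7.30% of contractile barcodes and in none and 0.244% of the low-score ones. Pln, another smooth muscle gene, was at 0 in the contractile barcodes of both libraries. Other genes of vessel wall cells went the other way. Abcc9 and Kcnj8 were lower in both libraries, as given above. Rgs5, also used to mark pericytes, was at 2197 CPM (control) and 2285 CPM (knockout) in the range from 5 to under 10. Over the 3 ranges of the class it fell from 1384 over 1188 to 741 CPM and from 2383 over 1949 to 1541 CPM. At least 2 counts of Myh11 were found in 200 contractile barcodes labelled control (50.8%) and 71 labelled knockout (51.8%). These held 3871 CPM of Acta2 against 983 CPM in the other contractile barcodes (control) and 2066 against 205 CPM (knockout), yet Lrat was still at 786 against 1408 CPM and 1060 against 1159 CPM. When barcodes with at least 2 Myh11 counts were left out, 110 genes were called higher in place of 247. Eln then turned in the library labelled control (log2 ratio -1.81), and Col1a2 there was at 0.51 in place of 1.32. The calls of 4 genes that are lower in the class ended as well: the log2 ratios were then -0.56 for Hgf (control), -0.46 and -0.29 for Cxcl12, -0.50 and -0.21 for Angptl6, and -0.44 and -0.29 for Tgfbi (control and knockout).

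Some transcripts were graded over the 3 ranges of the class. Myh11 stood at 70.0 CPM in the range from 10 to under 20, 163 CPM from 20 to under 50 and 617 CPM at 50 or more in the library labelled control, and at 196, 370 and 885 CPM in the library labelled knockout. Lox stood at 194, 280 and 737 CPM (control) and at 51.0, 487 and 1213 CPM (knockout). Tgfb2 stood at 257, 400 and 937 CPM (control) and 116, 591 and 1393 CPM (knockout). Lrat ran downward, from 1366 over 1237 to 654.5 CPM and from 1441 over 1114 to 209 CPM, as did Hgf, from 709 over 550 to 294 CPM and from 1156 over 540 to 119 CPM. Igfbp3 was near level in the library labelled control, at 5218, 5153 and 4049 CPM, and lowest at the top of the score in the library labelled knockout, at 3472, 2731 and 836 CPM. The highest range held only 16 barcodes in the library labelled knockout, and the range below it 32.

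**Figure D3:**
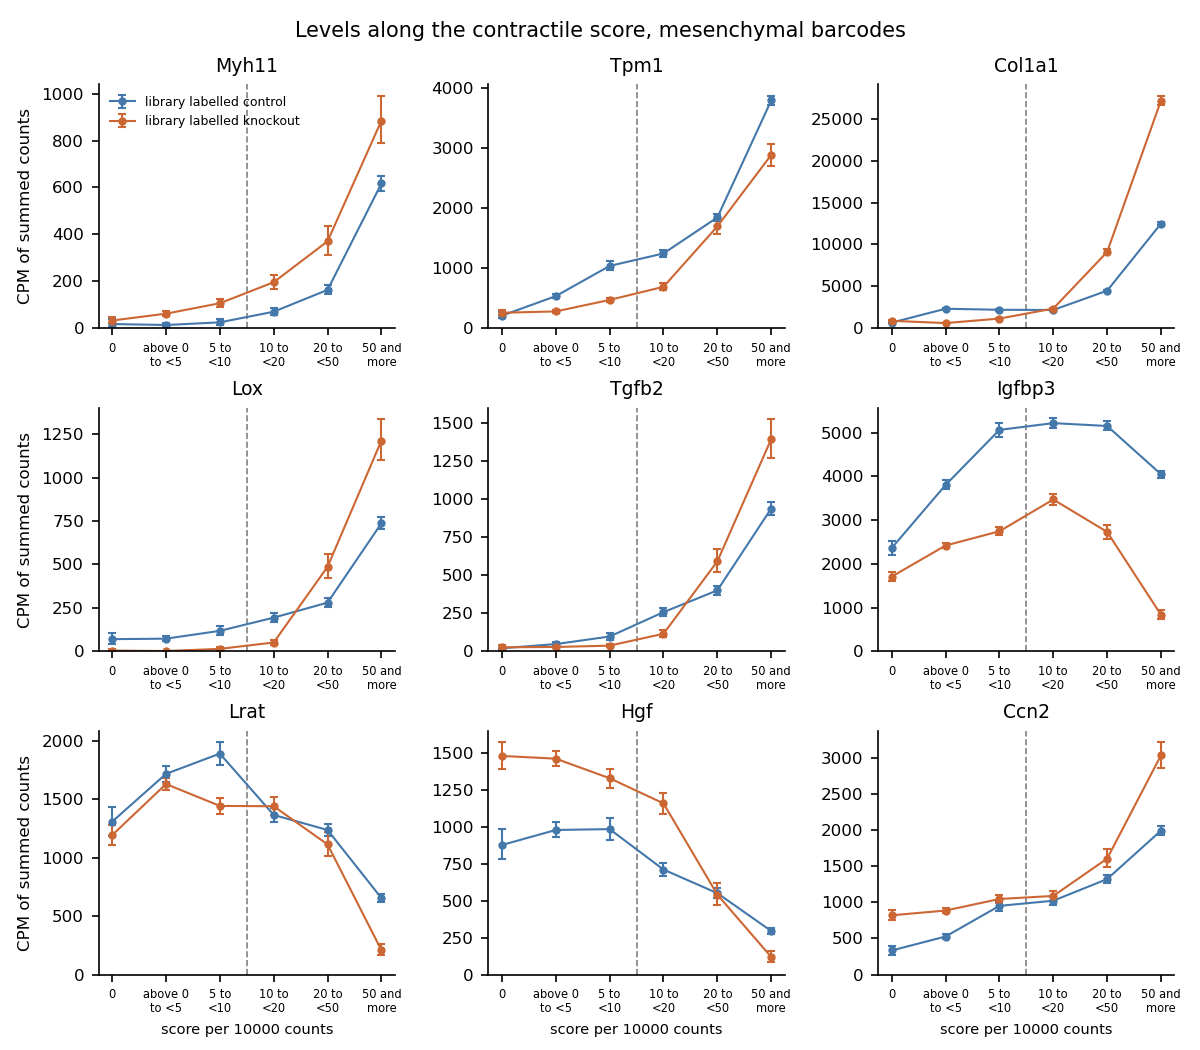
Summed level in CPM (vertical axes, linear and scaled to each gene) of 9 genes over the 6 ranges of the contractile score (horizontal axis, counts per 10000) in the library labelled control and the library labelled knockout, with exact 95% Poisson intervals as bars and the limit of the class as a dashed line. Myh11, Lox and Tgfb2 are highest in the top range of both libraries, and Lrat and Hgf are lowest there.

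Some summed levels rested on very few barcodes. The 5 contractile barcodes with most of each gene's counts held 59.6% of all Col1a1 counts in the library labelled knockout and 21.6% in the library labelled control. The same share was 55.7% and 21.9% for Col1a2, 61.3% and 17.7% for Lox, 75.4% and 53.1% for Eln, and 97.6% and 53.7% for Timp1. It was only 14.5% and 4.23% for Igfbp3 and 13.7% and 5.80% for Lrat. The median contractile barcode accordingly held 2601 CPM of Col1a1 in the library labelled control and 418 CPM in the library labelled knockout, the reverse order of the summed levels of 7193 and 9258 CPM. For Lox the medians were 153 and 0 CPM, and for Acta2 1343 and 0 CPM. Eln was counted in only 30.5% and 20.4% of contractile barcodes.

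**Figure D4:**
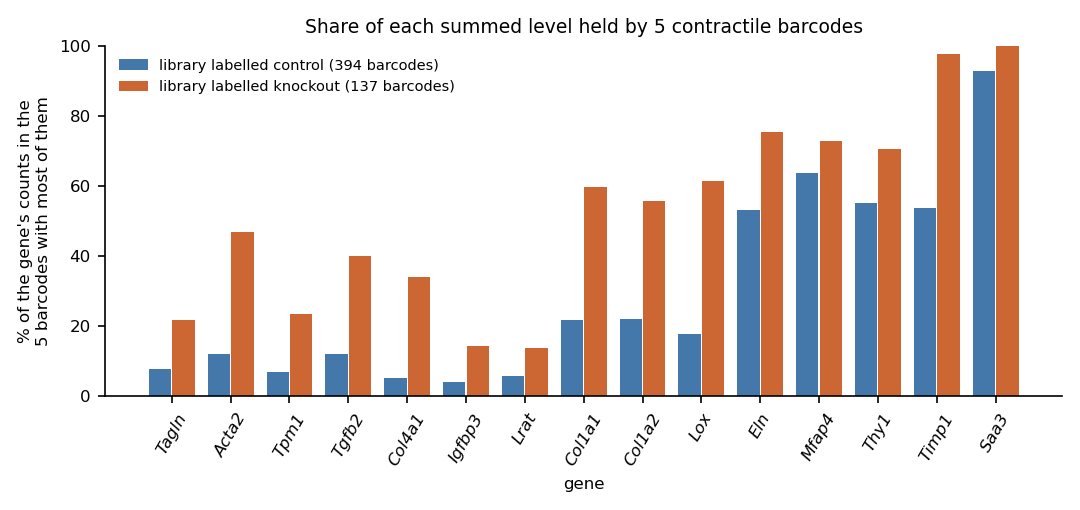
Share of a gene's counts (vertical axis, %) held by the 5 contractile barcodes with most of them, for 15 genes (horizontal axis) in the library labelled control (394 barcodes) and the library labelled knockout (137). Col1a1 reaches 59.6% and Timp1 97.6% in the library labelled knockout, against 14.5% for Igfbp3.

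The 5 barcodes with the most Col1a1 counts differed from the other members. Those labelled control held 51222 CPM of Col1a1 against 5813 CPM in the rest, 5.94 CPM of Lrat against 1062, 53.4 CPM of Igfbp3 against 4862, and 291 CPM of Thy1, a surface marker of portal fibroblasts, against 16.9. Those labelled knockout held 37960 CPM of Col1a1 against 4375, no count of Lrat against 1287 CPM, 12.6 CPM of Igfbp3 against 3194, and 344 CPM of Thy1 against 28.5. Eln was at 3427 against 479 CPM (control) and 10416 against 2141 CPM (knockout). The acute-phase gene Saa3 and Timp1 stood at 2477 against 0.713 CPM and 1354 against 7.85 CPM in the library labelled knockout. Their median depth was 30432 (control) and 41132 counts (knockout), above that of the class. These few barcodes thus met the rule while nearly lacking Lrat and Igfbp3. They were singled out after their values were seen.

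Between the libraries, the contractile barcodes were compared with a gene measured at 50 counts or more in all and 20 CPM in 1 library. Of 7263 measured genes 653 (8.99%) were at least 1.5-fold higher in the library labelled knockout and 790 (10.9%) lower. The median over all genes was -0.02 on the log2 scale. Members labelled knockout had lower scores, and the part of the score in the differences was not tested. Levels within ranges of the score are given beside the differences for some genes only.

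In the contractile apparatus 6 of 31 measured genes were lower and 2 higher in the library labelled knockout (19.4% and 6.45%, against 10.9% and 8.99% of all genes), with a median of -0.34. Of the 30 that reached 20 CPM in both libraries, 6 were lower and 1 higher. Tpm1 was at 2492 CPM (control) and 1401 CPM (knockout), Actn1 at 1102 and 619 CPM, Myl9 at 692.5 and 438 CPM, and Myh10, a non-muscle myosin, at 207 and 118 CPM. Within barcodes that had an Acta2 count (347 and 48) the list's median was -0.02, and within scores from 10 to under 50 it was -0.05. Neither subset matched the libraries on the score. Over the 3 ranges of the class, Tpm1 was at 1242 and 687 CPM, 1841 and 1692 CPM, and 3786 and 2881 CPM. Myl9 was there at 296 and 271 CPM, 539 and 496 CPM, and 1059 and 795 CPM. Myh11 was at 327 and 385 CPM over the class, and higher in the library labelled knockout within each of the 3 ranges of the class, as given above. Collagens had 4 of 14 higher and none lower, with a median of 0.32, which turned to -0.10 by means of barcodes and to -0.03 without the 5 barcodes with the most Col1a1 counts in each class. Of the 13 collagens at 20 CPM in both libraries, 3 were higher.

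Genes of resting stellate cells were mostly higher in the contractile barcodes labelled knockout: 12 of 22 measured (54.5%, against 8.99% of all genes) and none lower, with a median of 0.75. Ngfr, the low-affinity nerve growth factor receptor of stellate cells, was at 102 CPM (control) and 329 CPM (knockout), and its median over barcodes was 0 and 266 CPM. Vipr1, a receptor for vasoactive intestinal peptide, was at 218 and 566 CPM. Hgf was at 484 and 783 CPM and Cxcl12 at 2043 and 3581 CPM. Over the 3 ranges of the class, Hgf was at 709 and 1156 CPM, 550 and 540 CPM, and 294 and 119 CPM. Ngfr was at 147 and 366 CPM, 99.3 and 390 CPM, and 76.9 and 160 CPM. Among barcodes with an Acta2 count the log2 ratio was -0.05 for Hgf and -0.20 for Cxcl12, and the list's median was -0.09. Lrat itself was near level over the class, at 1030 and 1100 CPM. Among low-score stellate barcodes, in the range above 0 and under 5, Hgf was at 977 CPM (control) and 1458 CPM (knockout). Ngfr was there at 68.8 and 364 CPM, Vipr1 at 363 and 849 CPM, and Lrat at 1718 and 1631 CPM. The gaps of Hgf, Ngfr and Vipr1 were thus not limited to the contractile barcodes.

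Ccn1 was at 213 CPM in contractile barcodes labelled control and 941 CPM in those labelled knockout, and at 160 and 1032, 207 and 847, and 249.5 and 821 CPM in the 3 ranges of the class. It was counted in 61.4% and 93.4% of contractile barcodes. In the low-score stellate barcodes it was at 129 and 1253 CPM, so the gap was not limited to the contractile ones. Ccn2, its relative and the gene deleted in endothelial cells, was at 1523 and 1627 CPM, and the log2 ratio between them was 0.10 (0.03 to 0.16). Notch3 was at 199 and 507 CPM, and at 97.0 and 179 CPM, 164 and 901 CPM, and 290 and 876 CPM in the 3 ranges. It turned to a log2 ratio of -0.79 when barcodes with at least 2 Myh11 counts were left out. Kcnk3, a potassium leak channel of vascular smooth muscle, was at 19.5 and 159 CPM, and at 2.19 and 106.5, 12.7 and 225, and 35.6 and 215 CPM in the 3 ranges. Clstn2, a calsyntenin, was at 6.50 and 164 CPM and was counted in 5.08% and 35.8% of barcodes. Below the class, in the range above 0 and under 5, Kcnk3 was at 4.21 and 42.1 CPM and Clstn2 at 4.21 and 62.2 CPM. Their gaps were not limited to the contractile barcodes either.

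In the other direction, Fbln5, a fibulin of elastic fibres, was at 1275 CPM (control) and 386 CPM (knockout), and at 1223 and 439, 1278 and 322, and 1303 and 328 CPM in the 3 ranges of the class. Its median over barcodes was 1174 and 307 CPM. Below the class Fbln5 was at 870 and 354 CPM from 5 to under 10 and at 603 and 349 CPM above 0 and under 5. At a score of 0 it was at 243 and 290 CPM. Igfbp3 was at 4715 and 2732 CPM, with medians of 4990 and 3180 CPM, and was lower in the library labelled knockout in all 6 ranges of the score. Igf1 was at 96.7 and 35.4 CPM, the interferon-induced chemokine Cxcl10 at 162 and 34.1 CPM, and the urokinase gene Plau at 38.4 and 5.49 CPM. Basement membrane genes were 6 of 15 lower and 3 higher, including Col4a1 at 4571 and 2983 CPM, Col4a2 at 2051 and 1307 CPM and Lama5, a laminin chain, at 104 and 42.7 CPM. Of the 14 at 20 CPM in both libraries, 5 were lower and 3 higher. In barcodes with an Acta2 count the log2 ratio of Col4a1 was -0.09. The macrophage markers ran with these genes, with 9 of 9 measured lower in the library labelled knockout (100%, against 10.9% of all genes). So did 7 of 11 endothelial markers (63.6%). However, 3 of these macrophage and 2 of these endothelial markers reached 20 CPM only in the library labelled control. Among those that reached it in both libraries, 6 of 6 macrophage and 5 of 9 endothelial markers were lower. Their part in the differences was not tested.

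For the remaining lists the shares over all genes, 8.99% higher and 10.9% lower, are the background. Matrix glycoproteins had 9 of 21 measured genes higher (42.9%) and 2 lower (9.52%), and matrix remodelling 6 of 18 higher (33.3%) and 3 lower (16.7%). Among members at 20 CPM in both libraries, 8 of 20 matrix glycoproteins were higher and 2 lower. For matrix remodelling it was 6 of 16 and 2. Fn1 (fibronectin) was at 993 CPM (control) and 2125 CPM (knockout), and Htra1, a secreted protease, at 22.9 and 112 CPM. Vasoactive receptors had 4 of 15 higher and 1 lower, with Calcrl, the receptor shared by CGRP and adrenomedullin, at 156 and 405 CPM and the sphingosine phosphate receptor S1pr3 at 73.8 and 153 CPM. Their median of 0.49 turned to -0.27 among barcodes with an Acta2 count. The TGF-beta axis had 2 of 19 higher (10.5%) and 3 lower (15.8%), near the background. Ltbp1, which anchors latent TGF-beta in the matrix, was at 26.5 and 102 CPM, and Tgfbr3, the co-receptor betaglycan, at 189 and 399 CPM. SRF and myocardin-related factors had 3 of 10 higher and none lower, YAP and TEAD targets 3 of 14 and none, integrins 2 of 11 and none, the PDGF and IGF axis 2 of 10 and 2, collagen processing 1 of 20 and 1 (5% each way), and cytokines 4 of 10 and 1. Some of these genes reached 20 CPM in only 1 library. With 20 CPM in both, the cytokines had 3 of 8 higher and 1 lower, and the PDGF and IGF axis 1 of 8 and 2. Integrins then had 1 of 10 higher and none lower, and vasoactive receptors 4 of 14 and none.

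Of 10 measured smooth muscle or pericyte markers 5 were higher in the library labelled knockout and 2 lower (50% and 20%, against 8.99% and 10.9% of all genes). However, 2 of the 10 reached 20 CPM only in the library labelled knockout. Of the 8 that reached it in both libraries, 4 were higher and 2 lower. All 8 measured portal fibroblast markers were higher, but 2 of them reached 20 CPM only in the library labelled knockout. The portal markers summed to 807 CPM in contractile barcodes labelled control and 3958 CPM in those labelled knockout, with single barcodes from 0 to 379 and from 0 to 388 per 10000. Clec3b was at 0 in both libraries, and Pi16 and Slit2 were at 0 in the library labelled knockout. Thy1 was at 25.3 and 74.4 CPM but was counted in only 8.38% and 12.4% of the barcodes, against 4.46% and 1.56% of B cells, and 55.0% and 70.5% of its counts came from 5 of them. Eln alone was at 569 and 3344 CPM, beside the sums of 807 and 3958 CPM for the portal markers. Its counts likewise came mostly from 5 barcodes, and its median over barcodes was 0 in both libraries. The part of Eln in the gap between the sums was not tested.

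Several cell cycle genes were lower in the contractile barcodes labelled knockout. All 12 listed genes were measured, but 9 reached 20 CPM only in the library labelled control, so nothing is read from their count. Of the 3 that reached it in both libraries 2 were lower, against 10.9% of all genes. Mki67, the Ki-67 antigen of cycling cells, was at 144 CPM (134 to 155) among barcodes labelled control and 21.3 CPM (14.9 to 29.7) among those labelled knockout. Top2a, the topoisomerase of dividing cells, was at 213 and 36.6 CPM, and Pcna, the sliding clamp of DNA replication, at 128 and 94.5 CPM. The mitotic kinase gene Cdk1 was at 103 and 8.53 CPM, and Prc1, which bundles spindle microtubules, at 132 and 3.66 CPM. Ccnb1 had 2 and Cenpf 3 counts in the library labelled knockout, with log2 ratios of -4.76 (-7.82 to -2.89) and -5.03 (-7.31 to -3.47).

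A count of at least 3 of the 12 cycle genes was found in 23.1% of contractile barcodes labelled control (19.0 to 27.6) and 5.11% of those labelled knockout (2.08 to 10.2). After thinning to 4374 counts the shares were 12.8% and 1.64%. In low-score stellate barcodes they were 10.2% and 3.17% before thinning and 4.85% and 1.45% after. Endothelial barcodes had 13.9% (12.5 to 15.4) and 4.28% (3.65 to 4.98) before thinning and 8.79% and 2.52% after. B cells had 6.70% (3.80 to 10.8) and 2.73% (1.11 to 5.55) before and 5.76% (2.52 to 11.03) and 4.55% (1.49 to 10.3) after. Before thinning, the intervals of the 2 libraries were apart in contractile, low-score and endothelial barcodes and overlapped in B cells. After thinning, those of the low-score barcodes overlapped too. Within the library labelled control, the thinned interval of the contractile barcodes (9.62 to 16.6) did not overlap that of the low-score ones (2.44 to 8.50). Within the library labelled knockout both intervals overlapped (0.199 to 5.80 and 0.472 to 3.35). Across the ranges of the score the unthinned shares were 6.52%, 12.4%, 8.22%, 21.6%, 23.1% and 24.3% in the library labelled control. The intervals of the ranges next to the limit overlapped there (3.08 to 17.0 below it and 14.4 to 30.4 above). They were 3.26%, 4%, 1.69%, 2.25%, 12.5% and 6.25% in the library labelled knockout. The part of free RNA, and of depth beyond the thinning, was not tested.

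**Figure D5:**
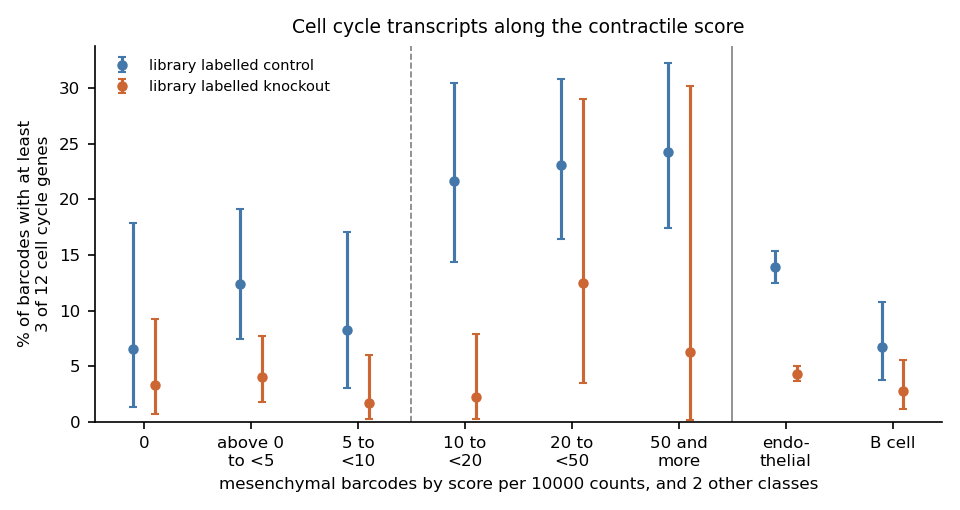
Share of barcodes (vertical axis, %) with counts of at least 3 of 12 cell cycle genes in the 6 ranges of the contractile score and in endothelial and B cell barcodes (horizontal axis) of each library. Bars are exact 95% binomial intervals, which cover counting error only. In the library labelled control the 3 ranges above the dashed limit stand from 21.6% to 24.3%, and in the library labelled knockout from 2.25% to 12.5%.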

How the data were processed

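After hepatocytes had been spun out, the liver cells of 1 mouse for each genotype were profiled with a whole-transcriptome single-cell assay, per the labels. The deposited values are raw counts per gene and barcode, not normalized. The submitters' processing notes name build GRCm 39. How reads were aligned, identifiers collapsed and cells called is not given in the sources used here, so intervals cover counting error only. In the files, the lowest barcode totals were 3311 (control) and 2848 (knockout) counts.

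The members and gene lists were chosen with earlier results of these data known. Genes of the rule were left out of all list counts. Counts were summed per class and library and given as CPM, with exact Poisson intervals, exact conditional intervals for ratios and Clopper-Pearson intervals for shares (95%). Nothing was tested, and a gene was called by size (1.5-fold). Named genes were up to 4 per list with the largest ratios past that size (else the 2 of highest CPM), the class markers and Ccn2, and the 10 genes furthest apart in each direction that had 100 counts and reached 100 CPM in 1 arm, without mitochondrial, ribosomal, haemoglobin, immunoglobulin, unnamed and hepatocyte genes and genes at home in other classes. Values of some of these genes are not reported here. Other named genes, such as Lrat, were chosen after their values were seen. The automatic threshold of Scrublet (Scanpy 1.11.5) marked 1 barcode per library, so it had not worked. Leaving out the top 5% of its scores was an alternative, which took 21 (control) and 0 (knockout) contractile barcodes. Of 19 alternatives, 5 were chosen after the data had been seen. Python 3.11.15, SciPy 1.17.1 and, for TMM factors, edgeR 4.0.16 in R 4.3.3 were used, and the scripts were tested on simulated data.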

Additional observations from a re-analysis of the deposited data

Results flagged for a closer look

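Among measured genes, 21 were at least 1.5-fold apart between contractile and low-score stellate barcodes in opposite directions in the 2 libraries, and 5 of the genes named by rule or by choice were among them. With 1 library per label the difference between the libraries was not tested. Anln, an anillin of the cleavage furrow, had a log2 ratio of 1.18 under the control label and -0.79 under the knockout label. Ube2c, a ubiquitin-conjugating enzyme of mitosis, had 0.86 and -2.50. The alarmin Il33 had -3.91 and 0.63, and Lgi2 had -2.10 and 1.20. Saa3 had -3.08 and 1.54, and a count of it was found in 1.46% of the contractile barcodes labelled knockout. In the library labelled control, Lgi2 was counted in 3.55% of contractile and 3.91% of low-score barcodes, and Saa3 in 3.05% and 4.30%. The 5 barcodes with most of each gene's counts held 72.5% (contractile) and 89.6% (low-score) for Lgi2 there, and 92.6% and 98.3% for Saa3.

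Barcodes over the mitochondrial limit stayed out of every comparison. Of these, 16 labelled control and 6 labelled knockout met the rest of the rule for contractile barcodes.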

How the results depend on the processing

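No paired analysis was possible because each label has 1 library, and for the same reason no library could be left out. The share of contractile barcodes among mesenchymal ones was higher in the library labelled control under every alternative run. It was 71.8% (control) and 46.6% (knockout) with a score limit of 5, 43.5% and 8.78% with a limit of 20, and 43.8% and 16.0% without barcodes of at least 2 Myh11 counts. TMM factors moved the median log2 ratio of all genes between the classes from -0.06 to 0.08 in the library labelled control, and list medians there are read against that shift. The number of genes called moved more. Genes higher in contractile than in low-score barcodes (247) were 110 without barcodes of at least 2 Myh11 counts, 141 after thinning, 159 with at least 100 counts and 50 CPM, 925 with no filter and 112 at 2-fold. Genes lower (303) were 483 with a limit of 20, 183 by means of barcodes, 160 after thinning, 142 with the stricter filter, 1081 with none, 111 at 2-fold and 175 without barcodes with a Ptprc count. Between the libraries, genes higher (653) were 331, 6248 and 233 and genes lower (790) were 321, 2631 and 332 with the stricter filter, no filter and 2-fold. Fewer or more genes were tested under the filters by construction, and the cause of the other moves was not tested.

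Medians of lists that turned between the libraries were those of collagens, at -0.062 (limit of 5), -0.10 (means of barcodes), -0.052 (thinned), -0.10 (no Ptprc) and -0.028 (without the 5 barcodes with the most Col1a1), of stellate quiescence, at -0.064 (limit of 20) and -0.092 (with an Acta2 count), and of vasoactive receptors, at -0.28 and -0.27 under the same settings. Endothelial markers turned to 0.24 with the macrophage and endothelial limits halved. Between the classes, endothelial markers turned in the library labelled control to -0.055 (limit of 20) and -0.11 (limits halved), and in the library labelled knockout to 0.040 (means), 0.073 (thinned) and 0.14 (no Ptprc). Macrophage markers turned to 0.010 (knockout, no Ptprc) and hepatocyte markers to -0.011 (knockout, thinned).

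Log2 ratios of single genes turned as follows. Without barcodes of at least 2 Myh11 counts, the class ratio was -1.81 for Eln (control), -1.16 and -0.64 for Col18a1 (control, knockout) and -0.031 for Crim1 (knockout), and the library ratio was -0.79 for Notch3 and -1.49 for Ankrd1. With a limit of 5 the knockout class ratio was 0.53 for Ccl2 and 2.19 for Cxcl1. The other turns were in ratios between the libraries. Without Ptprc they were -4.83 for Saa3, -0.65 for Col15a1 and -1.47 for Timp1, without the 5 barcodes with the most Col1a1 -4.62 for Saa3 and -2.20 for Timp1, and after thinning -0.14 for Timp1. With a limit of 20 they were -0.24 for Hgf, -0.38 for Abcc9, 0.033 for Actg2 and -0.010 for Cxcl12, and with an Acta2 count -0.049, -0.27, 0.26 and -0.20. Within scores from 10 to under 50 they were 0.36 for Tgfb3, -0.50 for Ankrd1 and 0.14 for Actg2. The cause of these turns was not tested. Of list medians under alternatives, 971 moved by less than 1.5-fold, 42 moved by more, and 17 of size 0.25 or more turned. Of gene ratios, 2299 stayed within their counting interval, 954 left it, and 25 that had been past 1.5-fold turned.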
